A study of Mus musculus with 3 samples.

Results

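Mt1, Mt2, Slc30a1 and Mtf1, a group of 4 metallothionein and zinc handling genes, were followed in single cells of 3 mouse cultures. All 4 were listed in each of the 3 count tables, which together list 27886 genes and hold 622 cells. Mt1 and Mt2 were chosen by their levels in an earlier reading of these data, where they stood with Dppa5a among the genes that most set 1 cluster of CPCC cells apart, and Slc30a1 and Mtf1 were added for their part in zinc handling. The values of Mt1, Mt2 and Dppa5a in CPCC cells are therefore a description and carry no test. The cultures were male F1 cells of the cross C57BL/6 x CAST/EiJ (C57BL/6J in the methods of the study): embryonic stem cells (mESC, 215 cells), grown in serum with LIF and kinase inhibitors, cardiac precursor cell cultures (CPCC, 175 cells), made from dissociated embryoid bodies that were passaged with EGF and Fgf2, and beating cardiac bodies (CB, 232 cells), grown from aggregates in ascorbic acid medium and picked by hand. The embryoid bodies behind CPCC had also been formed in ascorbic acid medium, and CB were not grown from CPCC. The stem cells came from clones of several blastocysts. There was 1 sample per group, so no difference between cultures has a replicate check and no p-value is given. Cells were sequenced in 8 pools, numbered here within each culture, and no label says which clone or dish a pool holds.

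Metallothioneins are small cysteine-rich proteins of the cytosol and nucleus that bind zinc and copper and buffer their free concentration. Their genes respond to zinc through Mtf1, the metal-responsive transcription factor, which binds metal response elements in their promoters, and also to stress and glucocorticoid signals. Slc30a1 is the zinc exporter of the plasma membrane and is itself a known target of Mtf1. Yolk sac endoderm and fetal liver are known for high metallothionein expression.

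Mt2 and Mt1 are neighbours on the plus strand of chromosome 8 (GRCm38, GENCODE). Mt2 lies at chr8:94172664-94173568 and Mt1 at chr8:94179082-94180327, with 5513 bases between them, and the main transcript of each has 3 exons. Slc30a1 lies at chr1:191906767-191913247 with 2 exons, and Mtf1 at chr4:124802104-124849800 with 11 exons in its longest main transcript. No stretch of 100 bases of any of the 4 genes' transcripts occurred in a transcript of another gene, and the longest run that Mt1 and Mt2 transcripts share was 20 bases, so reads of the members can be told apart. Dppa5a, in contrast, shared 3.08% of its 100-base stretches with Dppa5b, Dppa5c, Gm15310 and Gm6798.

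The bases before the start of Mt2, Mt1 and Slc30a1 are shown because these are the genes known to answer to Mtf1 and because Mt1 and Mt2 tracked each other over cells. Each is a window of 236 bases from RefSeq (GRCm38.p6, plus strand) that ends before the first annotated start. Capitals mark the core of the metal response element, searched as TGCGCNC or TGCACNC on both strands. The windows are chr8:94172368-94172603 for Mt2, chr8:94178839-94179074 for Mt1 and chr1:191906531-191906766 for Slc30a1.
Mt2: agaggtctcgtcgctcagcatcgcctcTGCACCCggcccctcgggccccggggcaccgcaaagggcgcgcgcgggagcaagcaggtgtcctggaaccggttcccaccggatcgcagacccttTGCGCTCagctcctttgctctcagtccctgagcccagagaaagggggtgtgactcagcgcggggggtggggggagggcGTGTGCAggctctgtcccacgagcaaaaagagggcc
Mt1: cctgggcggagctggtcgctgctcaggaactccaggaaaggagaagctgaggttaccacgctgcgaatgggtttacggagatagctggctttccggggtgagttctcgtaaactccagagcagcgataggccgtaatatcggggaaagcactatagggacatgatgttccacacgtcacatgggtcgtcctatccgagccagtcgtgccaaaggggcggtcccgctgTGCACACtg
Slc30a1: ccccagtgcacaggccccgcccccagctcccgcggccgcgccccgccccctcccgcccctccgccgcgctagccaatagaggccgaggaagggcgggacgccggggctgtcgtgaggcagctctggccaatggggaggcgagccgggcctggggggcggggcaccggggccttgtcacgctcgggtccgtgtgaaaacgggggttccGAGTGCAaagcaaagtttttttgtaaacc
The Mt2 window held 3 matches, with 1 of TGCGCNC and 2 of TGCACNC. The Mt1 and Slc30a1 windows held 1 match each. Among 32851 promoter windows of the same length, 20.1% held at least 1 match and 1.12% held 3 or more. The windows cover only part of what may lie before these genes. GENCODE lists later starts at 94179241 for Mt1, 94172860 for Mt2 and 191907256 for Slc30a1, and the bases just before those starts are not in the windows. The Mt2 window also ends short of the first GENCODE start. A match is a run of letters and not a binding site.

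Depth was alike in the cultures, with medians of 1528316 counts per cell in mESC, 1437414 in CPCC and 1397869 in CB, and uneven within them, with 8, 1 and 9 cells under 10000 counts. No cell name was shared between tables and no pair of cells had the same values. Against the labels, all 10 pluripotent markers were found in most cells of every mESC cluster, whereas none of 10 cardiomyocyte markers was found in most cells of any CB cluster. Few cells carried them: 7 of 232 CB cells had at least 3 cardiomyocyte markers at 100 CPM or more, a limit chosen after the values were seen, 5 of them in the unnamed CB cluster of 87 cells, where the markers summed to 1093 CPM, against 37.0 to 114.0 CPM in the other CB clusters and 13.6 to 23.3 CPM in mESC clusters. Between 0 and 3 of 8 cardiac progenitor markers were found in most cells of a CPCC or CB cluster. The names of the cultures are used as labels, and no cluster is called cardiac.

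Mt1 was abundant and even in mESC, split between the pools of CPCC, and concentrated in few cells of CB. Its pooled level, in counts scaled to a total of 1000000 gene counts (CPM), was 1229 in mESC (exact 95% Poisson interval 1226 to 1233, counting error only), 846.4 in CPCC and 458.1 in CB. In the 3 mESC pools it was 1161, 1155 and 1402 CPM. In the 2 CPCC pools it was 1536 and 200.3 CPM. In the 3 CB pools it was 163.9, 940.3 and 143.0 CPM. The mESC pools lay close together, CPCC pool 1 lay above all of them and CPCC pool 2 far below, and every CB pool lay below every mESC pool.

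Mt2 followed the same order of cultures. Its pooled level was 804.5 CPM for mESC, 511.1 CPM for CPCC and 165.3 CPM for CB. The mESC pools held 709.1, 863.8 and 828.0 CPM, the CPCC pools 955.1 and 95.3 CPM, and the CB pools 80.0, 327.1 and 53.9 CPM. Corrected for transcript length, the level in mESC was 2239 CPM per kb for Mt1 and 1574 CPM per kb for Mt2, against 2.32 for Slc30a1 and 3.87 for Mtf1. Per length, both metallothioneins stood far above the exporter and the transcription factor.

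**Figure D1:**
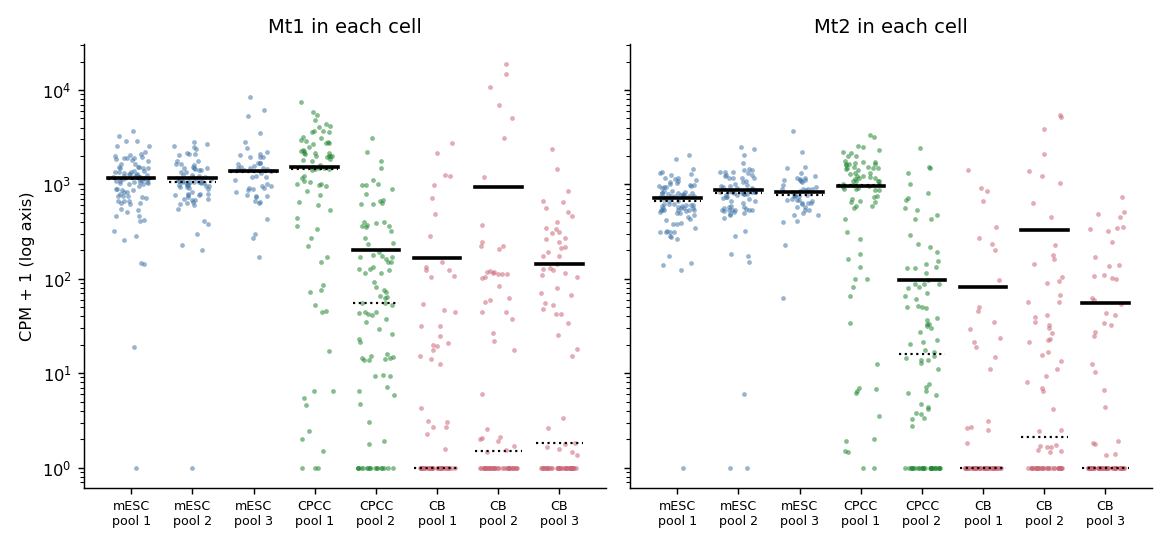
Mt1 (left) and Mt2 (right) in every cell, as CPM + 1 on a log axis, by pool. Each point is a cell, the solid bar is the pooled CPM and the dotted bar the median cell. In mESC the solid and dotted bars lie close together, whereas in the CB pools the pooled level of Mt1 (143.0 to 940.3 CPM) stands far above a median cell below 1 CPM.

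The cells showed how unlike the cultures were. The middle cell of mESC held 1100 CPM of Mt1, with quartiles of 777.7 and 1512 CPM. In CPCC the median was 179.6 CPM with quartiles of 14.7 and 1452 CPM, so low and high cells were mixed. In CB the median was 0.621 CPM, the upper quartile 106.8 CPM and the highest cell 18793 CPM. A level of 100 CPM or more was reached by 212 of 215 mESC cells, 102 of 175 CPCC cells and 63 of 232 CB cells. The single CB cell with the most Mt1 held 31.1% of the culture's Mt1 counts and the top 5 cells held 71.6%, against 2.67% and 10.4% in mESC.

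A cell was taken to contain a gene at 1 or more counts. Mt1 was detected in 99.1% of mESC cells (exact 95% Clopper-Pearson interval 96.7 to 99.9%), 88.6% of CPCC cells (82.9 to 92.9%) and 52.6% of CB cells (46.0 to 59.2%). After each cell was thinned to a depth of 430000, for which 22, 18 and 22 cells of mESC, CPCC and CB were too shallow, the shares were 100%, 87.3% and 51.0%. Mt2 was detected in 98.6% of mESC cells, 82.3% of CPCC cells and 44.4% of CB cells. The order of the cultures was the same in level, in share and in thinned share. The median number of genes per cell moved with it, at 9532 in mESC, 9252 in CPCC and 6661 in CB, and its part in the shares was not tested.

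Between cultures, the pooled level gave a log2 ratio of (CPM + 1) of -0.54 for Mt1 and -0.65 for Mt2 in CPCC against mESC. Neither passed 2-fold, a size that 7.94% of 11849 genes exceeded downwards and 17.8% upwards in this pair. The pools did not share a direction: 3 of 6 pairs of a CPCC and a mESC pool had Mt1 higher in CPCC, and the same held for Mt2. In CB against mESC the log2 ratio was -1.42 for Mt1 and -2.28 for Mt2. Both were more than 2-fold lower, as were 15.2% of 12619 genes, while 31.4% were more than 2-fold higher. Without CB pool 3 the ratio of Mt1 was -0.83, within 2-fold, and without CB pool 2 it was -3.03, while Mt2 stayed past 2-fold without any 1 pool. All 9 pairs of pools had the lower value in CB, with Mt1 from -3.28 to -0.30 and Mt2 from -3.98 to -1.11. In CB against CPCC the log2 ratio was -0.88 for Mt1 and -1.62 for Mt2, with 10.1% of 12963 genes more than 2-fold lower and 20.4% more than 2-fold higher. CB pool 2 stood above CPCC pool 2 for both genes, and the other 5 pairs of pools went the other way. Without CPCC pool 1 the direction turned, to 1.19 for Mt1 and 0.79 for Mt2 in CB against CPCC, and the ratio of CPCC against mESC was -2.61 for Mt1 and -3.06 for Mt2, both past 2-fold. Without CPCC pool 2 it was 0.32 and 0.25. The median of all genes was 0.27 in CB against mESC and 0.18 in CB against CPCC, and 0.10 and -0.00 with TMM factors, which gave -1.07 for Mt1 in CB against CPCC, past 2-fold.

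Over cells Mt1 and Mt2 tracked each other. The Spearman correlation over cells was 0.71 in mESC (0.66 to 0.79 in the pools), 0.89 in CPCC (0.86 and 0.70) and 0.67 in CB (0.56 to 0.78). The cells of a pool share their libraries' preparation, and no test was made. Mt1 correlated with the total counts of a cell at 0.02 (mESC), 0.01 (CPCC) and 0.13 (CB). Both genes were detected in 212 mESC, 139 CPCC and 82 CB cells, and neither in 2, 15 and 89 cells. Per Mt2 count there were 1.53 Mt1 counts in mESC, 1.66 in CPCC and 2.77 in CB.

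To see which cells carried the genes, each culture was clustered with the 4 members and Dppa5a left out of the genes used. The 3 mESC clusters differed little, with 1188, 1220 and 1283 CPM of Mt1 and 743.1, 836.6 and 822.5 CPM of Mt2. In CPCC the 66 pluripotent-like cells, with each of the 10 pluripotent markers detected in most of them, held 1983 CPM of Mt1 and 1215 CPM of Mt2. Both genes were detected in 100% of these cells, and the median cell held 1886 CPM of Mt1. The 55 cells led by Fbln5 and Bgn by fold and by Acta2 by difference held 34.2 CPM of Mt1 and 24.3 CPM of Mt2. They carried markers of several lists together and stay unnamed. Smooth muscle markers summed to 14042 CPM in them, epithelial markers to 2104 CPM and fibroblast markers to 1433 CPM. In most of them 3 of 5 neural markers were detected. A further unnamed cluster of 30 cells, led by Car4, Fgf5 and Lefty1, lay between with 469.4 and 381.9 CPM. It too carried pluripotent markers, with 6 of 10 detected in most of its cells. They summed to 1691 CPM, against 2681 CPM in the pluripotent-like cells and 58.7 CPM in those led by Acta2.

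The pools of CPCC held these clusters in different numbers. Of the pluripotent-like cells 57 were in pool 1 and 9 in pool 2, and of the cells led by Acta2 19 were in pool 1 and 36 in pool 2. Within the pluripotent-like cluster Mt1 was 2052 CPM in pool 1 and 1093 CPM in pool 2, with median cells at 1991 and 683.6 CPM. A single cell gave 42.7% of the Mt1 counts of its 9 cells in pool 2. Within the cells led by Acta2 Mt1 was 56.0 and 23.0 CPM, and a single cell gave 33.2% of the pool 1 counts. In both clusters the gap between the pools was smaller than over all cells, where it was 1536 against 200.3 CPM. In the cluster led by Car4 pool 1 also lay above pool 2, but with only 2 cells. These 2 held 4093 and 983.8 CPM of Mt1 and 40.7% and 14.8% of the cluster's Mt1 counts, and its 28 cells of pool 2 held 236.8 CPM. Which part of the pool difference goes with the cell numbers was not tested.

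Macrophage-like cells, all 14 in CPCC pool 2, parted Mt1 from Mt2. Each of the 8 macrophage markers was detected in most of them. They held 356.6 CPM of Mt1, with a median cell at 252.9 CPM and Mt1 detected in 100% of cells. Mt2 was at 31.8 CPM, with a median cell at 8.43 CPM and detection in 57.1% of cells. The ratio of Mt1 to Mt2 counts was 11.2 in these cells, against 1.63 in the pluripotent-like cells, 1.41 in the cells led by Acta2 and 1.23 in those led by Car4. The remaining CPCC cluster, of 10 cells, had a median of 76816 counts and 54.4% mitochondrial counts and is not described further.

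**Figure D2:**
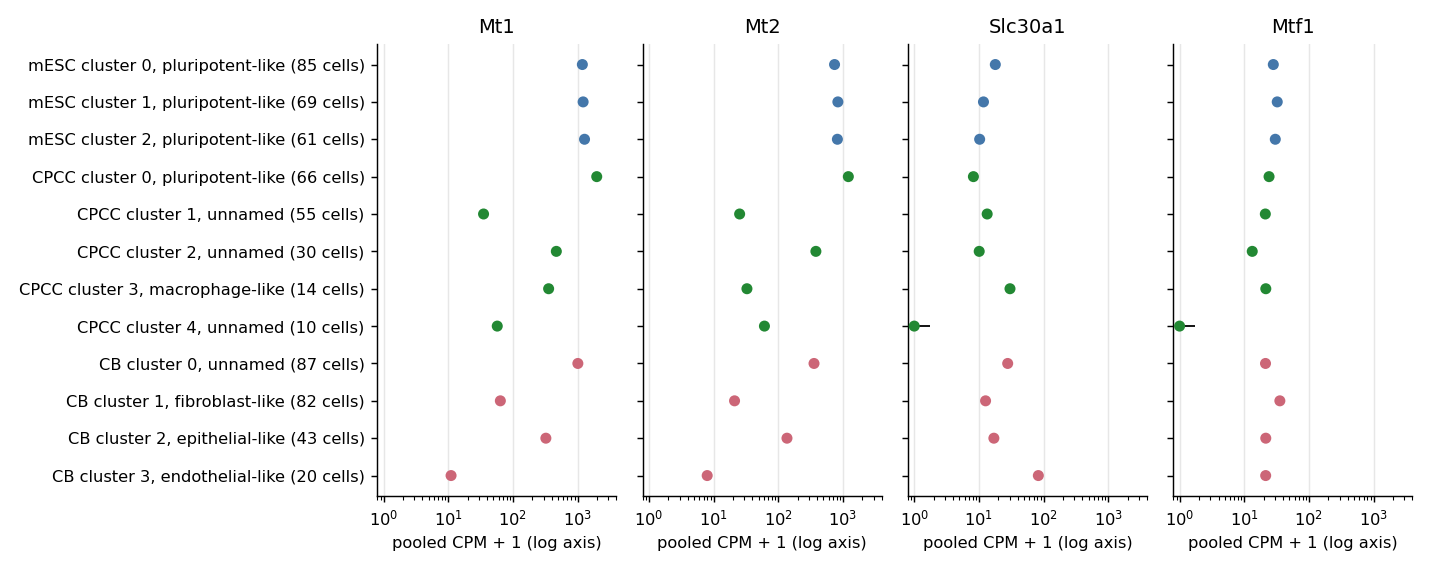
Pooled level of Mt1, Mt2, Slc30a1 and Mtf1 in each cluster, as CPM + 1 on a log axis, with exact 95% Poisson intervals that are mostly narrower than the points. Mt1 and Mt2 range widely between clusters, from 1983 CPM of Mt1 in the pluripotent-like CPCC cells to 10.1 CPM in the endothelial-like CB cells, whereas Mtf1 stays between 12.3 and 34.6 CPM outside the 10-cell cluster, in which neither Mtf1 nor Slc30a1 was detected.

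Dppa5a, a small RNA-binding protein gene of pluripotent cells and early embryos, was the partner of Mt1 and Mt2 in CPCC. Its pooled level was 7985 CPM in mESC and 2174 CPM in CPCC, with 3810 and 641.3 CPM in the CPCC pools, and it is not listed in the CB table. Over the 175 CPCC cells the Spearman correlation with Dppa5a was 0.74 for Mt1 and 0.82 for Mt2. Within pool 1 it was 0.57 and 0.63, and within pool 2 it was 0.52 and 0.73. In either pool, cells high in Dppa5a thus tended to be high in metallothionein.

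Inside the pluripotent-like cells and those led by Acta2 the correlation was lower than over all cells. Over the 66 pluripotent-like CPCC cells the correlation with Dppa5a was 0.01 for Mt1 and 0.21 for Mt2, although Dppa5a had a median of 5256 CPM there. Over the 55 cells led by Acta2 it was 0.11 and 0.23. Over the 30 cells led by Car4 it was 0.55 and 0.45. In mESC, where nearly all cells had both genes, it was 0.14 for Mt1 and 0.15 for Mt2, with pools from -0.19 to 0.34. Dppa5a was detected in 100% of the pluripotent-like cells and reached at most 744.1 CPM in the cells led by Acta2, and the part of this narrower range in the lower correlations was not tested.

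**Figure D3:**
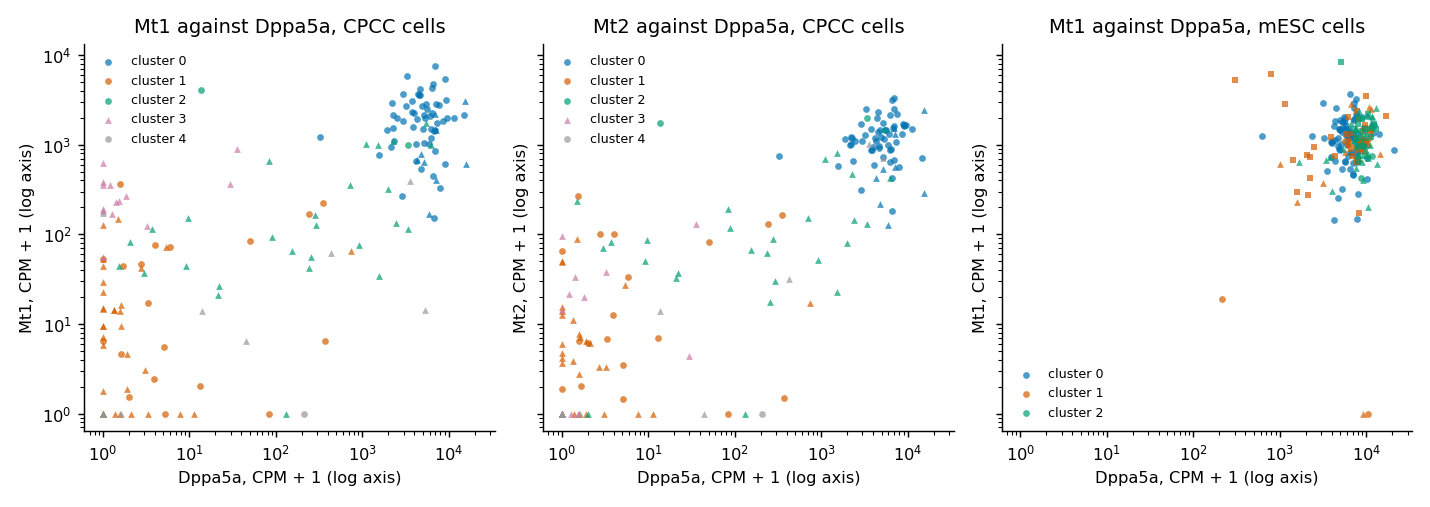
Mt1 (left) and Mt2 (middle) against Dppa5a in CPCC cells, and Mt1 against Dppa5a in mESC cells (right), all as CPM + 1 on log axes. Colours give the cluster, with circles for pool 1, triangles for pool 2 and squares for pool 3. The pluripotent-like cells of CPCC (cluster 0) form a cloud at the upper right with a correlation of 0.01 for Mt1 inside it, and the macrophage-like cells (cluster 3) have Mt1 with almost no Dppa5a (4.25 CPM pooled).

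In CB most metallothionein came from very few cells that carried endoderm markers. The 6 cells with the most Mt1, all in pool 2, held 18793, 14819, 10891, 6969, 5062 and 3118 CPM of it. Their Mt2 was 5213, 5422, 3858, 1390, 2100 and 1034 CPM in the same order. The same cells held between 1465 and 10836 CPM of Afp, alpha-fetoprotein, 914.0 to 4918 CPM of Ttr, the carrier of thyroxine and retinol-binding protein, 2792 to 12013 CPM of Apoa1 and 787.2 to 1526 CPM of Apob, both apolipoproteins. Of the other endoderm markers, Foxa2 was at 19.5 to 105.8 CPM, Gata6 at 0 to 46.6 CPM, and Sox17 at 0 in 5 cells and 0.958 CPM in 1. They had no Col1a1 count.

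With at least 3 of 7 endoderm markers at 100 CPM or more, a limit chosen after these values were seen, 7 CB cells were found, 6 in pool 2 and 1 in pool 1. The cell of pool 1 had 787.8 CPM of endoderm markers in all, including Sox17, and 13.3 CPM of Mt1. Together the 7 cells held 75.4% of the Mt1 counts and 66.7% of the Mt2 counts of CB. Without them Mt1 in CB was 117.1 CPM and Mt2 57.2 CPM. In pool 2 it fell to 61.2 CPM of Mt1, below pools 1 and 3, where the pool had been the highest with them. The log2 ratio of CB against mESC without these cells was -3.38 for Mt1 and -3.79 for Mt2. The 7 CB cells with cardiomyocyte markers, of which 1 also met the limit for endoderm markers, held 0 to 132.1 CPM of Mt1 with a median of 56.0 CPM. Few cells of either kind were captured, and doublets were not called.

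**Figure D4:**
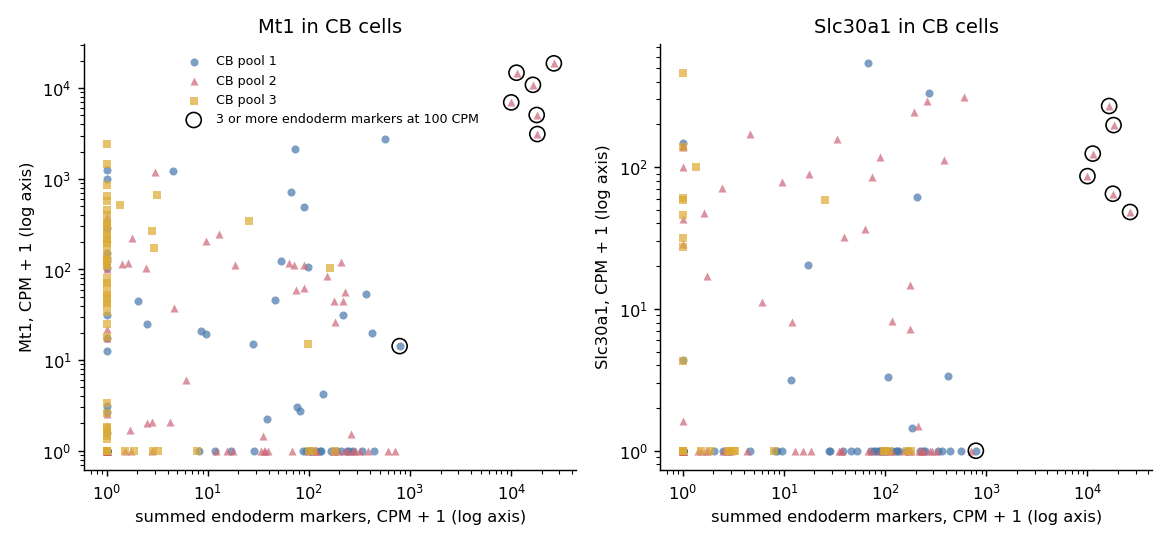
Mt1 (left) and Slc30a1 (right) against the summed level of the endoderm markers in CB cells, as CPM + 1 on log axes, coloured by pool. The 6 circled cells of pool 2 at the right hold 3118 to 18793 CPM of Mt1 and 47.2 to 268.3 CPM of Slc30a1, and the circled cell of pool 1 holds 13.3 CPM of Mt1 and no Slc30a1.

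The remaining metallothionein of CB lay with epithelial genes. The 43 epithelial-like cells, with each of the 10 epithelial markers detected in most of them, held 323.1 CPM of Mt1 and 135.7 CPM of Mt2, and Mt1 was detected in 81.4% of them. In pool 1 these cells held 578.4 CPM of Mt1 and in pool 3 263.5 CPM. The 82 fibroblast-like cells held 63.1 CPM of Mt1 and 20.1 CPM of Mt2. The 20 endothelial-like cells, all in pool 2, held 10.1 and 6.98 CPM, the lowest of any cluster. The unnamed cluster of 87 cells, which includes the 6 cells above, held 1012 CPM of Mt1 with a median cell at 0.707 CPM, and 84.8 CPM of Mt1 without the cells past the limit for endoderm markers. A cell of pool 1 that did not reach that limit remains in this value with 2744 CPM of Mt1, 466.2 CPM of Afp, 59.8 CPM of Foxa2 and 33.7 CPM of Apoa1.

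Cells with Epcam, an epithelial adhesion protein, at 100 CPM or more, a limit chosen after the values were seen, numbered 72 in CB. They held 1289 CPM of Mt1 with a median of 122.4 CPM, and the 160 other cells held 44.0 CPM with a median of 0. All 7 cells with endoderm markers were among the 72, and the 65 others held 281.6 CPM of Mt1 with a median of 116.2 CPM. Of the 20 CB cells with the most Mt1 among those with at least 100000 counts, 17 had at least 100 CPM of Epcam, and 6 of them were cells with endoderm markers.

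The genes whose level over cells was most like that of Mt1 and Mt2 summed were taken as the 10 with the highest mean Spearman correlation over pools, with each gene required in 25% or more of a pool's cells. In CB they were Cldn7, Dsg2, Epcam, Krt8, Cldn4, Gm7901, Krt8-ps, Spint2, Gm9347 and Phgdh, with means from 0.46 to 0.55 over 3 pools. Cldn7 and Cldn4 encode tight junction claudins, Dsg2 a desmosomal cadherin and Krt8 a keratin. In CPCC they were Apoe, Chchd10, Gm6083, Apoc1, Gm6798, Mkrn1, Alpl, Gm12346, Tdrd12 and Tex19.1, with means from 0.60 to 0.64 over 2 pools. Dppa5a ranked 13 of 10832 genes with 0.60. Gm6798 is among the 4 genes that share sequence with Dppa5a. In mESC the values were lower, from 0.33 to 0.40, and 6 of the 10 genes bear ribosomal protein or ribosomal pseudogene names (Rpl27-ps3, Rpl41, Rpl17-ps3, Rpl13a, Rpl9-ps4 and Rps23-ps1). The others were Gm10076, Gm47428, Romo1 and D8Ertd738e. Dppa5a ranked 1624 of 10917 there.

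Slc30a1, the exporter, was low in every culture, and CB pool 2 held more of it than any other pool. Its pooled level was 12.2 CPM (11.8 to 12.5) for mESC, 11.8 CPM (11.4 to 12.2) for CPCC and 24.2 CPM (23.7 to 24.7) for CB. The pools held 15.3, 9.96 and 11.8 CPM in mESC, 7.74 and 15.6 CPM in CPCC, and 17.0, 39.8 and 12.9 CPM in CB. The pool ranges of mESC and CPCC overlapped, and CB pool 2 alone stood above them all by more than 2-fold. The share of cells ran the other way, with 41.9% in mESC, 32.6% in CPCC and 23.3% in CB, so no order of expression is read from it. The log2 ratio was 0.94 in CB against mESC and 0.98 in CB against CPCC, both just under 2-fold on the log2(CPM + 1) scale, whose pseudocount lowers the ratio of low genes, and -0.04 in CPCC against mESC. Without CB pool 2 they were 0.20 and 0.25. They passed 2-fold without CB pool 1 (1.03 and 1.07) and without CB pool 3 (1.35 and 1.39), as did CB against mESC without mESC pool 1 (1.10) and CB against CPCC without CPCC pool 2 (1.53).

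The high Slc30a1 of CB pool 2 was highest in 2 kinds of cell. The 20 endothelial-like cells held 82.1 CPM, were positive in 11 of 20 cells and had almost no metallothionein. The 6 cells with endoderm markers in that pool held 128.0 CPM, were positive in 6 of 6 cells and had the most metallothionein. Fibroblast-like cells held 11.7 CPM, with counts in 9 of 82 cells, and epithelial-like cells 16.1 CPM, with counts in 6 of 43 cells. In CB pools 1 and 3 a single cell gave 50.6% and 56.4% of the Slc30a1 counts. In CPCC the macrophage-like cells were highest with 29.3 CPM, of which 1 cell gave 27.7%. Over cells Slc30a1 correlated with Mt1 at 0.00 (mESC), 0.02 (CPCC) and 0.09 (CB), with 0.24 in CB pool 2. Within CB the values for Mt1 were 0.29 in the unnamed cluster, -0.15 in the fibroblast-like, 0.36 in the epithelial-like and 0.07 in the endothelial-like cells. Slc30a1 correlated with Mt2 at 0.22 over all CB cells, and at 0.36, -0.21, 0.44 and 0.45 in the same clusters. In CB pool 2 it was 0.38. Most cells had no count of Slc30a1, and these values are a description.

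Mtf1, the transcription factor that drives Mt1, Mt2 and Slc30a1 in response to zinc, differed little between cultures. Its pooled level was 29.5 CPM for mESC, 19.98 CPM for CPCC and 25.4 CPM for CB. The mESC pools held 28.6, 25.8 and 35.5 CPM, the CPCC pools 23.1 and 17.1 CPM and the CB pools 19.3, 20.5 and 32.6 CPM. The pool ranges of CB overlapped those of both other cultures, while each CPCC pool lay below each mESC pool. The log2 ratios were -0.54 in CPCC against mESC, -0.21 in CB against mESC and 0.33 in CB against CPCC, none past 2-fold. The share of cells with Mtf1 was 73.0%, 61.1% and 34.1% in mESC, CPCC and CB, and no order is read from it, since from CPCC to CB it goes against the level. The correlation of Mtf1 with Mt1 over cells was 0.15, 0.12 and 0.12, and the 7 CB cells with endoderm markers held 7.997 CPM of Mtf1 beside 9563 CPM of Mt1.

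The other metallothioneins were scarce. Mt3, the brain-enriched member, was at 2.36, 9.69 and 4.78 CPM in mESC, CPCC and CB. Mt4, known from squamous epithelium, was at 0.407 CPM in mESC and 1.04 CPM in CPCC, and is not listed in the CB table. Of the 3 metallothioneins that reached 5 CPM in CPCC or mESC, Mt3 alone was more than 2-fold higher in CPCC, beside 17.8% of all genes. It reached 5 CPM only in CPCC. Mt4 was too low to be compared.

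The 24 zinc transporters were 10 genes of the Slc30 family, listed as exporters, and 14 of the Slc39 family, listed as importers. Most Slc30 members lower cytosolic zinc and most Slc39 members raise it. All 24, with Slc30a1 among them, were counted beside all genes, which were themselves more often higher than lower outside mESC. In CPCC against mESC 15 reached 5 CPM in either culture, 5 were more than 2-fold higher, 1 was more than 2-fold lower and the median log2 ratio was 0.41, beside 0.00 over all genes and the 17.8% and 7.94% above. In CB against mESC 17 reached that level, 7 were higher and 2 lower, with a median of 0.84 beside 0.27 over all genes and 31.4% and 15.2%. In CB against CPCC 2 of 18 were higher and 1 lower, with a median of 0.27 beside 0.18 over all genes and 20.4% and 10.1%. These counts are small, and whether the list differs from other genes was not tested.

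Among the exporters, Slc30a4, which loads zinc into vesicles, was at 2.41, 17.2 and 29.1 CPM in mESC, CPCC and CB, the order kept for the genes that follow. Slc30a7 of the Golgi was at 20.9, 49.0 and 49.7 CPM and Slc30a9 at 38.1, 51.1 and 79.3 CPM. Slc30a5 and Slc30a6, partners in the secretory pathway, kept close levels, with 45.3, 48.4 and 50.2 CPM for Slc30a5 and 41.4, 46.3 and 45.7 CPM for Slc30a6. Slc30a10 was more than 2-fold higher in CB than in CPCC, at 5.20 and 0.0507 CPM, with CB counts in 5 fibroblast-like cells.

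Among the importers, Slc39a4, the importer of the intestine that is mutated in acrodermatitis enteropathica, was more than 2-fold lower in both other cultures than in mESC. It was at 31.6, 11.7 and 4.21 CPM in the same order of cultures. Slc39a11 was more than 2-fold lower in CB than in mESC, at 19.4, 12.9 and 8.20 CPM. Slc39a6 was at 17.6, 51.9 and 48.7 CPM, Slc39a13, whose loss causes a connective tissue disorder, at 4.34, 17.1 and 29.1 CPM, and Slc39a14 at 0.886, 13.3 and 13.3 CPM. Slc39a1 was more than 2-fold higher in CB than in mESC, at 18.0 and 6.03 CPM. Slc39a8 is not listed in mESC and was more than 2-fold higher in CB than in CPCC, at 21.0 and 7.79 CPM. The 7 CB cells with endoderm markers held 33.1% of its CB counts, and without them the log2 ratio moved from 1.32 to 0.83, within 2-fold. Slc39a10 was at 86.6, 67.0 and 99.4 CPM, and Slc39a7 of the endoplasmic reticulum at 39.3, 71.1 and 69.2 CPM.

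**Figure D5:**
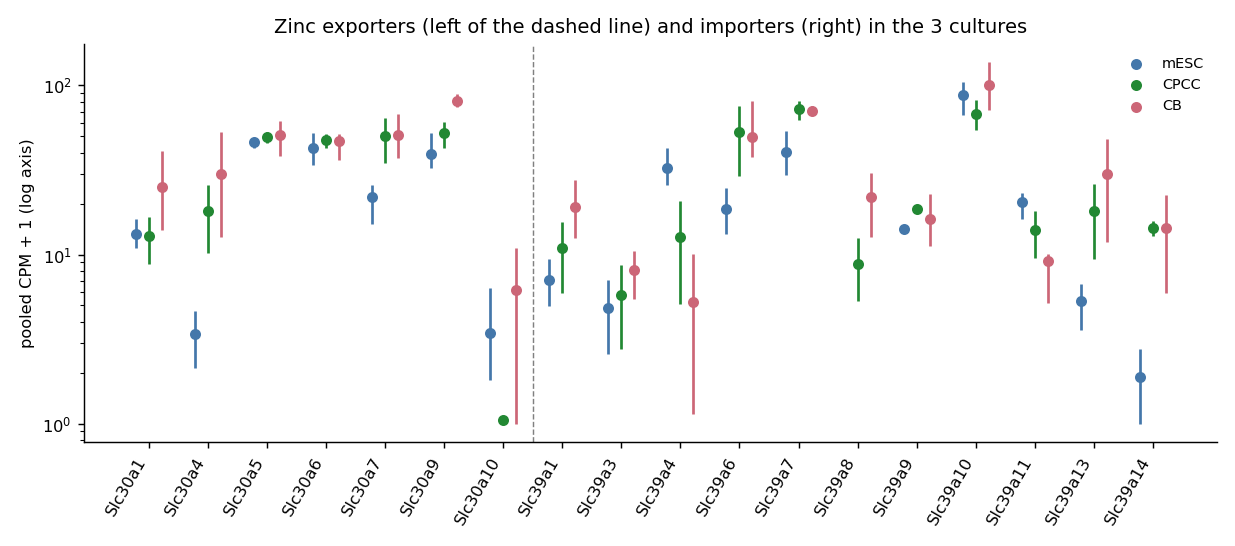
Zinc exporters and importers that reached 5 CPM in any culture, as pooled CPM + 1 on a log axis, with lines from the lowest to the highest pool. Slc30a4, Slc39a13 and Slc39a14 lie higher in both CPCC and CB than in mESC with pool ranges that do not overlap those of mESC, and Slc39a4 lies lower. Slc39a8 has no mESC point because it is not listed there.

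The transporters also differed between cells of 1 culture. In CPCC the cells led by Acta2 held 40.4 CPM of Slc30a4, 89.6 CPM of Slc30a7, 97.2 CPM of Slc39a6 and 37.1 CPM of Slc39a13. The pluripotent-like cells held 3.66, 18.5, 12.8 and 1.94 CPM of the same genes. These values lay nearer to the 2.41, 20.9, 17.6 and 4.34 CPM of mESC than to those of the cells led by Acta2. Slc39a4 was at 23.0 CPM in the pluripotent-like cells and 3.59 CPM in the cells led by Acta2. Slc39a14 went against this pattern, with 17.4 CPM in the pluripotent-like cells of CPCC, where 41 of 66 cells had it, against 0.886 CPM in mESC. In CB the fibroblast-like cells held 58.2 CPM of Slc30a4 and 55.2 CPM of Slc39a13.

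The importers Slc39a4, Slc39a8 and Slc39a5, picked here after their values were seen, were higher in the CB cells with endoderm markers than in the rest of the unnamed cluster, to which 6 of the 7 belong. Slc39a4 was detected in 7 of 7 of them at 111.1 CPM, and at 0.377 CPM in the rest of that cluster. They held 95.2% of its CB counts, and without them it was at 0.209 CPM in CB. Slc39a8 was detected in 7 of 7 at 192.7 CPM. It was also found in 17 of 43 epithelial-like cells at 39.8 CPM, which include the pool 1 cell with endoderm markers. Further cells with it were 5 of 20 endothelial-like cells at 21.7 CPM, 5 of 82 fibroblast-like cells at 6.16 CPM and 11 of the 81 remaining cells of the unnamed cluster at 9.62 CPM. Slc39a5 was detected in 6 of 7 at 74.0 CPM and in no other cell of that cluster. The 6 of these cells in pool 2 held 10757 CPM of Mt1, 3434 CPM of Mt2 and 128.0 CPM of Slc30a1, with Slc39a6 at 2.76 CPM and Slc39a13 at 0.276 CPM. The cell of pool 1 had 13.3 CPM of Mt1 and no Slc30a1.

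The copper and stress lists were read in CB against mESC beside all genes, of which 31.4% were more than 2-fold higher and 15.2% lower, with a median log2 ratio of 0.27. Of 11 copper handling genes 10 could be compared, with 3 higher and 2 lower, near those shares, and a median of -0.06. Atp7a, the copper exporter, was at 9.64, 27.9 and 35.5 CPM in mESC, CPCC and CB, and Sco1, needed for cytochrome oxidase assembly, at 53.3, 30.7 and 13.4 CPM. Of 10 genes of the NRF2 response, which answers oxidative stress, 1 was higher and 3 were lower in CB than in mESC, with a median log2 ratio of -0.88. Gsta4 was at 912.8, 279.0 and 252.4 CPM and Nqo1 at 87.5, 27.0 and 26.5 CPM. Hmox1, heme oxygenase, was at 43.2, 98.8 and 21.3 CPM.

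Of the 8 listed glucocorticoid response genes, 6 could be compared between CB and mESC, with 3 higher and 2 lower, beside 31.4% and 15.2% of all genes, and a median log2 ratio of 0.59. Tsc22d3 was at 3.82, 44.3 and 96.8 CPM, while Fkbp5 was at 47.4, 27.6 and 7.97 CPM. Of 8 heat shock genes 3 were higher in CB than in mESC, Hspa1a, Hspa1b and Dnajb1, and 3 lower, Hspa8, Hsph1 and Hsp90aa1, with a median of -0.06. The CB pools ran from 0.553 to 58.0 CPM for Hspa1a, 2.46 to 44.0 CPM for Hspa1b and 114.4 to 314.9 CPM for Dnajb1. All 3 ranges overlapped those of the mESC pools, whereas the ranges of the 3 lower genes did not. Of 8 genes of the LIF and STAT3 pathway 6 were higher in CB than in mESC and 1 lower, with a median of 1.18 beside 0.27 over all genes. The CB pool ranges of Lifr, Il6st, Stat3, Socs3 and Klf4 overlapped those of mESC. Those of Junb, which was higher, and Tfcp2l1, which was lower, did not. Tfcp2l1, a naive pluripotency factor, was at 368.3, 24.5 and 5.87 CPM, and Junb at 5.05, 53.5 and 438.7 CPM.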

How the data were processed

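Single cells of 3 samples (mESC, CPCC, CB) were captured on Fluidigm C1 chips and sequenced from SMART-Seq cDNA. The authors aligned paired reads to GRCm38 with STAR (version 2.7 in the submitters' processing notes) in Partek Flow and deposited 1 table per culture, without scaling. The mESC and CB tables hold estimated counts as deposited (26.4% and 27.4% of values above 0 were not whole within 0.001), and the CPCC table holds whole counts as deposited. Each table lists only genes that reach 1 in some cell, so a gene that is not listed was not set to 0. For CPCC, 208 rows without a gene and 23 symbols turned into dates (0.139% of counts together) were left out, as were 2 columns that name no sample. Strand use is not given in the sources used here.

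Counts were summed over cells and divided by the summed gene counts (CPM). Log2 ratios used a pseudocount of 1 CPM, which understates changes of low genes. Genes at 5 CPM in either culture and listed in both were compared, and 2-fold was the limit, with no test, since there was 1 sample per group. Shares carry Clopper-Pearson and sums Poisson intervals at 95%. The reads carry no molecular identifiers and so do not stand for separate molecules, and both intervals cover counting error only. Values were rounded for thinning, intervals and scaling factors. Lengths were those of the longest principal GENCODE transcript. Clusters were made with Seurat 5.3.0 (10 components, resolution 0.6, counts per cell regressed out, members and Dppa5a left out), and named only where listed markers allowed it. Names rebuilt here may differ from the study's. Doublets were not called. Alternatives used edgeR 4.0.16 and DESeq2 1.42.0 factors. The log2 ratios and the search for like genes were tested on simulated counts without pool effects, and the other steps were not.

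Named genes were the 4 members and Dppa5a, list genes at 20 CPM in any culture or past 2-fold between cultures, and the 10 genes most like Mt1 and Mt2 in each culture. Outside this rule, Mt4, Slc39a5, Epcam, Col1a1, marker genes and the leading genes of clusters were named as markers or after their values were seen. The members and lists were chosen with earlier results of these data known.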

Additional observations from a re-analysis of the deposited data

How the results depend on the processing

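Without replicates the limits are the pools and a few cells. No paired analysis was possible because the cells carry no replicate numbers and no test was made. Over the main results 39 alternative values stayed close, 86 moved and 1 that had been past 2-fold changed sign. Counting the log2 ratios of Mt1 and Mt2 that were within 2-fold as well, 4 changed sign, all on leaving out a CPCC pool. Values come as CPCC over mESC, then CB over mESC, then CB over CPCC. For Mt1 the log2 ratios were -0.52, -1.59 and -1.07 under TMM scaling, -0.57, -1.65 and -1.08 under DESeq2 scaling, -0.53, -1.78 and -1.25 as a mean over cells, and -0.56, -1.94 and -1.37 without the cell with most Mt1 of each culture, an alternative chosen after seeing the data. For Mt2 they were -0.64, -2.45 and -1.81, then -0.69, -2.51 and -1.82, then -0.57, -2.48 and -1.91, then -0.68, -2.64 and -1.97. A pseudocount of 10 CPM gave -1.40 and -0.87 for Mt1 and -2.22 and -1.57 for Mt2 in the pairs with CB, and a total without mitochondrial and the 20 most abundant genes gave -0.87 for Mt1 in CB against CPCC. Without the CB cells with endoderm markers, also chosen after seeing the data, Mt1 was at -3.38 and -2.84 and Mt2 at -3.79 and -3.14. Leaving out each pool in turn gave -2.61 to 0.32, -3.03 to -0.83 (within 2-fold without CB pool 3) and -2.50 to 1.19 for Mt1, and -3.06 to 0.25, -3.68 to -1.69 and -3.03 to 0.79 for Mt2, where -2.61, -3.06, 1.19 and 0.79 are without CPCC pool 1 and 0.32 and 0.25 without CPCC pool 2. For Slc30a1, in alternatives added after seeing the data, leaving out pools gave -0.59 to 0.33, 0.20 to 1.35 and 0.25 to 1.53, and no alternative took Mtf1 past 2-fold. At 10 counts Mt1 was detected in 96.3%, 80.0% and 40.9% of mESC, CPCC and CB cells and Mt2 in 70.3% of CPCC and 32.8% of CB cells, and thinning and the cell filter each gave 100% for both in mESC. The correlation with Dppa5a was 0.57 and 0.52 in the CPCC pools for Mt1 and 0.63 and 0.73 for Mt2, and 0.52 and 0.59 over the clusters with most pluripotent markers. With a pseudocount of 10 CPM, zinc transporters past 2-fold numbered 3 higher and 0 lower, 4 higher and 1 lower, and 0 higher and 0 lower, and with every listed gene 2 were lower in CPCC than in mESC. The cause of these moves was not tested, beyond the cells or pools each alternative leaves out.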
